A study of Mus musculus with 8 samples.

Results

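The nuclear genes for the subunits of the mitochondrial respiratory chain and of ATP synthase were followed in CT26 tumors, a murine colorectal carcinoma line grown under the skin of mice, across treatment with an EP4 antagonist, an anti-PD-1 antibody or both. The members were taken by gene name: every mouse feature of the array named for a complex I subunit (Ndufa, Ndufb, Ndufc, Ndufs, Ndufv), a complex II subunit (Sdha to Sdhd), a complex III subunit (Uqcr), a complex IV subunit (Cox4 to Cox8 followed by a to c) or an ATP synthase subunit (Atp5, complex V), with pseudogene names left out. This gave 126 features of 81 genes out of the 56567 mouse features kept, and 79 of the 81 genes passed the filter on dim signal, against 21497 gene names in all. The tested members were 37 genes of complex I, 4 of complex II, 8 of complex III, 13 of complex IV and 17 of complex V, and on the arrays as a whole 67 of the 79 lay in the brightest 10% of the tested features. The 2 genes left out, Cox7b2 and Cox8c, are isoforms of complex IV subunits known from testis and were not well above background on any of the 8 arrays.

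The series held 8 one-colour arrays, 2 in each of 4 groups. Each group came from CT26 tumors in the flank of female BALB/c mice aged 6 to 10 weeks by the general methods, implanted with 500000 cells and treated for 2 weeks. Vehicle mice received 0.5% carboxymethylcellulose sodium, TP-16 mice the oral EP4 antagonist TP-16 (BY001 in the sample records) at 75 mg/kg each day, anti-PD-1 mice 50 μg of the antibody by intraperitoneal injection 2 times a week, and combination mice both agents. EP4 is a receptor for prostaglandin E2, and PD-1 is an inhibitory receptor of T cells. Whole tumors were measured, so that every value mixes carcinoma cells with immune, stromal and neighbouring cells. Neither source says whether a sample was 1 tumor or a pool, so that p-values measure the spread between these samples only. In whole tissue, fewer cells of a type and less RNA per cell cannot be told apart.

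The respiratory chain passes electrons from NADH (complex I) and succinate (complex II) through ubiquinone, complex III, cytochrome c and complex IV to oxygen, and the proton gradient this builds drives ATP synthase. Most subunits are encoded in the nucleus and imported, while a small core is encoded by the mitochondrial genome. Each complex has core subunits that carry the redox centres or the catalytic sites. Complexes other than complex II also have accessory subunits, many of them small, that build and stabilise them. The genes of complex II, Sdha to Sdhd, were all counted as core. Nuclear genes of the chain are known targets of the transcription factors NRF1 and GABP (an ETS factor), and several carry a YY1 motif at the start of transcription.

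Promoters of 67 of the 79 members were found in the RefSeq table (GRCm38.p6, 250 bases before to 50 after the start site), and each was searched on both strands for 3 motifs. The NRF1 letters GCGCATGCG were in 8 of the 67 (11.9%), against 1.95% of 27025 genes and 2.61% of the 17492 coding genes among them. The YY1 letters AAGATGGCG were in 8 (11.9%), against 1.64% and 2.14%, and lay past the start site in 6 of the 8. The ETS letters CCGGAAGT were in 5 (7.46%), against 4.31% and 5.69%. In all, 20 members held at least 1 of the motifs. A match is a description of these letters and not of binding. The stretches below were picked among members whose first listed promoter holds the motif with 18 bases on each side, all before the start site, or for YY1 with 9 bases on each side before the promoter's end. This left out some members, such as Uqcrh and Ndufs6, and of the rest up to 3 a motif with the lowest values in the combination are shown, with the motif in capitals on the gene's own strand, reversed in Atp5h. They lie, in the order printed, at chr5:115349094-115349138, chr5:108434423-108434467, chr17:56717684-56717728, chr10:80406862-80406905, chr11:115419933-115419976, chr5:145191501-145191527, chr3:51408916-51408942 and chr6:126849098-126849124, all on the minus strand but Ndufa11 on the plus strand.
Cox6a1, NRF1 motif: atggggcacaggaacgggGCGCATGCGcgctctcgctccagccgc
Atp5k, NRF1 motif: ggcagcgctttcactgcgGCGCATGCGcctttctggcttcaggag
Ndufa11, NRF1 motif: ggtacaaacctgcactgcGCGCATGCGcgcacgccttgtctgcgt
Uqcr11, ETS motif: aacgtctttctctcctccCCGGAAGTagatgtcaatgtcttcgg
Atp5h, ETS motif: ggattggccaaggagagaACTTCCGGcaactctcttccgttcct
Atp5j2, YY1 motif: caggacttcAAGATGGCGtcactcggt
Ndufc1, YY1 motif: ctgcggaacAAGATGGCGccgtccgta
Ndufa9, YY1 motif: ttgtgggagAAGATGGCGgccgccgtc

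Levels are given as the log2 signal minus the 75th percentile of the same array, so that a value of 5 stands 5 doublings above that percentile. This choice of zero bears on every value of bright genes here. The 75th percentile itself stood at 371 and 378 signal units in vehicle tumors, at 530 and 551 after TP-16, at 398 and 415 after the antibody, and at 607 and 734 after both. All arrays came from 1 slide and 1 scan, the vehicle and TP-16 arrays in its first row and the others in its second, with the TP-16 and combination arrays in its last columns and the others in its first. Slide row and antibody, and slide column and TP-16, cannot be told apart. Before scaling, the median member signal of the combination arrays stood 0.06 and 0.24 log2 above the vehicle mean, while the 75th percentile stood 0.70 and 0.97 above it. No tested member feature was saturated on any array. The main results are therefore also given after quantile normalization, which gives all arrays 1 distribution. The authors' deposited log2 columns also share 1 distribution.

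Treatment with both agents went with lower levels of most respiratory chain genes relative to the 75th percentile. Of the 79 members, 66 fell against vehicle (limma, adjusted p at most 0.05 over all tested features) and none rose, where 26% of all genes fell and 9.6% rose. The median log2 difference of the members was -0.69, against -0.20 over all tested features and -0.52 over the brightest 10% of them. Among those, 55.2% of features fell, and 58 of the 67 members there did (86.6%). In 76 of the 79 members both combination arrays lay below both vehicle arrays, against 50.3% of all genes (58 members after quantile normalization, against 37.9%). The cut-offs of the methods, a fold of 2 with unadjusted p at most 0.05, were applied with limma's p and not with their Student's t-test. At them 8 members were lower, against 10.4% of all genes, so that the share past that size (10.1%) was that of the background.

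After quantile normalization the members' median difference was -0.23, against -0.01 over all tested features and -0.08 over the brightest 10%. With it 22 members fell and none rose, where 14.5% of all genes fell, and all 22 were among the 66. Among the brightest 10%, 26.9% of the members fell, against 17.2% of all features. The size of the difference thus depended on the scaling in most members, and 12 members that were below 0 with 75th percentile scaling were above 0 with quantile normalization, none of them called higher.

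**Figure D1:**
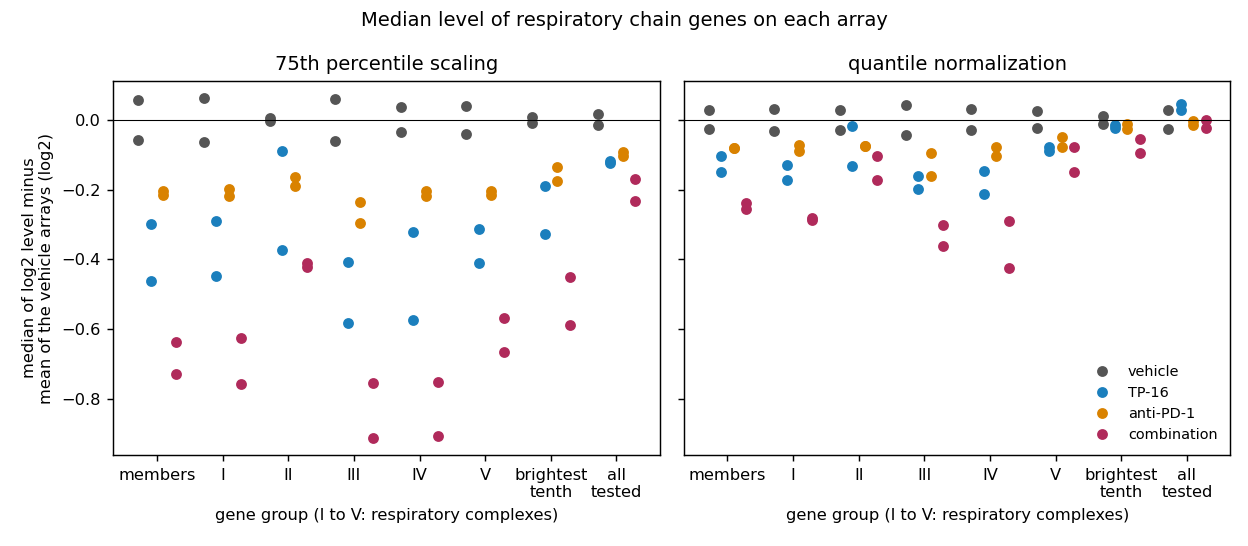
Each point is 1 array, and its height is the median, over the genes of a group, of the log2 level minus the mean of the 2 vehicle arrays. The left panel uses 75th percentile scaling and the right panel quantile normalization. For all members the combination arrays stood at -0.64 and -0.73 on the left and at -0.24 and -0.25 on the right, below every other array in both panels.

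The 2 arrays of a group lay close together for the members as a whole. Relative to the vehicle mean, the member medians were -0.46 and -0.30 under TP-16, -0.22 and -0.20 under anti-PD-1, and -0.64 and -0.73 in the combination, with the vehicle arrays at -0.06 and 0.06. The groups did not overlap. The order from vehicle through anti-PD-1 and TP-16 to the combination was the same after quantile normalization. The medians there were -0.08 on both anti-PD-1 arrays, -0.15 and -0.10 under TP-16, and -0.24 and -0.25 in the combination. With 75th percentile scaling this order was not particular to the members. The brightest 10% of features had it without overlap (anti-PD-1 -0.17 and -0.14, TP-16 -0.33 and -0.19, combination -0.45 and -0.59). So did all tested features (combination -0.17 and -0.23). After quantile normalization neither did, as anti-PD-1 (-0.03 and -0.01) and TP-16 (-0.02 and -0.02) overlapped in the brightest 10%. All tested features had TP-16 at 0.03 and 0.04.

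**Figure D2:**
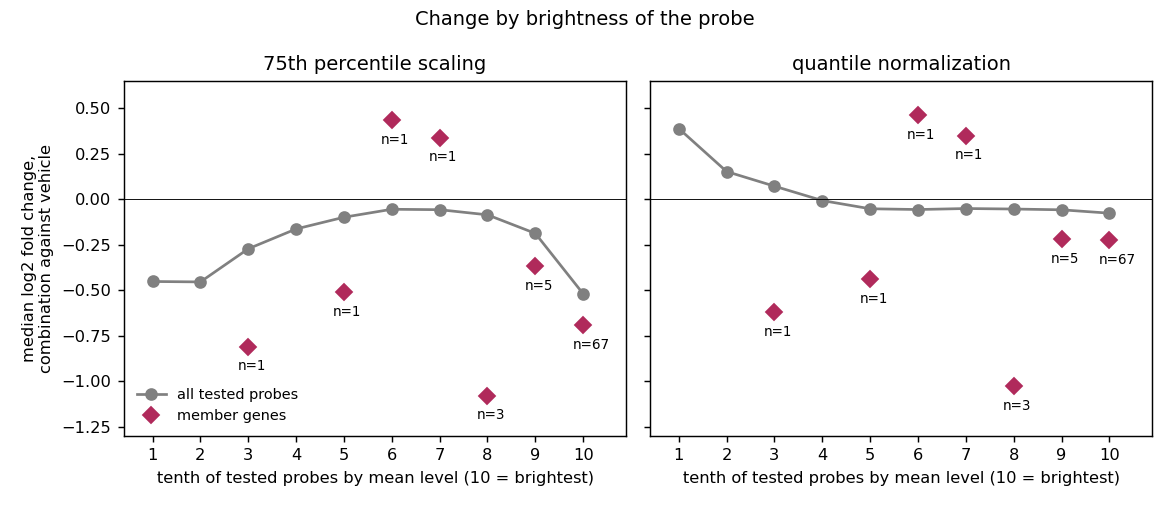
Median log2 fold change of the combination against vehicle in 10 equal classes of the tested features by mean level (10 is the brightest), for all features (circles) and for member genes (diamonds, with their number). With 75th percentile scaling the brightest 10% stood at -0.52 and its 67 members at -0.69. With quantile normalization they stood at -0.08 and -0.23.

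Complex I, the NADH dehydrogenase, had 32 of its 37 members lower in the combination, with a median of -0.67 (quantile -0.26, 13 lower). The background for this and each later complex is 26% of all genes lower, and 14.5% after quantile normalization. The lowest value of all members was that of Ndufa4, whose product was named for complex I and is now counted with complex IV. Its feature (mm9 chr6:11850423-11850482) read 5.57 and 5.44 in vehicle tumors, 4.45 and 4.92 under TP-16, 4.70 and 4.86 under anti-PD-1, and 4.06 and 4.10 in the combination. The vehicle arrays lay above all 6 treated arrays and the combination arrays below them. Ndufa4 fell by 1.43 on the log2 scale (SE 0.18, adjusted p = 0.0102), a fold of 2.69, and its value after quantile normalization was -1.16 (adjusted p = 0.0138).

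Ndufa7, an accessory subunit (mm9 chr17:33975141-33975200), read 7.28 and 7.26 in vehicle, 6.54 and 6.80 under TP-16, 6.88 and 6.93 under anti-PD-1, and 6.17 and 5.97 in the combination. Its 2 combination arrays were again below all others, and it fell by 1.20 (SE 0.14, adjusted p = 0.0102; quantile -0.68). The accessory subunits Ndufb4, at -1.10 (quantile -0.67), and Ndufb6, at -0.96 (quantile -0.71), fell under both scalings. Ndufa4l2, a relative of Ndufa4 known as a hypoxia-induced gene, read 2.30 and 1.66 in vehicle, 0.96 and 1.66 under TP-16, 2.52 and 2.34 under anti-PD-1, and 1.12 and 0.53 in the combination. The spread of its vehicle arrays was wide, and its value of -1.16 (SE 0.34) passed the threshold with 75th percentile scaling (adjusted p = 0.0490) but not with quantile normalization (-1.15, adjusted p = 0.0579).

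The core subunits of complex I divided. Ndufs8, which carries iron-sulphur clusters, was at -0.87 (quantile -0.56) and Ndufv2, of the NADH-binding module, at -0.79 (quantile -0.50), and both fell under both scalings. Ndufv1, which binds NADH and flavin, and Ndufs3 fell with 75th percentile scaling (-0.69 and -0.57) and missed the threshold after quantile normalization (-0.34 and -0.23). Ndufs7 and Ndufs1, which hold iron-sulphur clusters, did not pass the threshold at -0.33 and -0.14. Ndufs1, the largest subunit, read 4.61 and 4.50 in vehicle and 4.50 and 4.34 in the combination, the groups nearly touching, and its value was 0.11 after quantile normalization. Ndufv3, an accessory subunit of the NADH module, stood at -0.02 with 75th percentile scaling and 0.33 with quantile normalization, neither past the threshold. The second tested feature of Ndufs1 gave -0.95 and that of Ndufv3 -0.15, and neither was called.

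Complex II, succinate dehydrogenase, had a median of -0.42 over its 4 genes (quantile -0.15). Sdhb, the iron-sulphur subunit, and Sdhd, a membrane anchor, fell by 0.65 and 0.52 (adjusted p = 0.0126 and 0.0247). The other tested feature of Sdhb stood at -0.32 and was not called. Sdhc, the other anchor, was at -0.31, and Sdha, the flavoprotein, at -0.16, and neither passed. Sdha read 4.82 and 4.72 in vehicle, 4.77 and 4.84 under TP-16, 4.70 and 4.84 under anti-PD-1, and 4.68 and 4.53 in the combination. The first 3 groups overlapped, and the other tested features of Sdha ranged from -0.48 to 0.35 with none called. After quantile normalization no gene of complex II was called, and Sdha stood at 0.09.

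Complex III, cytochrome c reductase, also divided between core and accessory genes. All 5 accessory genes fell, with a median of -1.03 (quantile -0.48, 3 lower), while Uqcrc1, Uqcrc2 and Uqcrfs1, counted as core, stood at -0.28, -0.34 and -0.23 with none called (quantile -0.03, -0.04 and 0.04). Uqcrq (mm9 chr11:53242471-53242530) read 7.93 and 8.04 in vehicle, 7.21 and 7.27 under TP-16, 7.44 and 7.59 under anti-PD-1, and 6.79 and 6.59 in the combination. Vehicle was highest, then anti-PD-1, TP-16 and the combination, with no overlap between groups. Uqcrq fell by 1.30 (SE 0.12, adjusted p = 0.0102; quantile -0.65). Uqcr10 fell by 1.07 (quantile -0.49, called) and Uqcrh, the hinge protein at the cytochrome c site, by 1.03 (quantile -0.36, not called). Uqcrfs1, the Rieske iron-sulphur protein, read 5.01 and 5.00 in vehicle and 4.88 and 4.66 in the combination.

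Complex IV, cytochrome c oxidase, had 12 of its 13 genes lower and a median of -0.86 (quantile -0.35, 5 lower). Among the forms present in most tissues, Cox6c fell by 0.95, Cox7b by 0.93, Cox7a2 by 0.91, Cox7c by 0.90, Cox6a1 by 0.86, Cox8a by 0.77 and Cox6b1 by 0.62. After quantile normalization Cox7b, Cox7c and Cox6b1 remained past the threshold, while Cox6c, Cox7a2 and Cox8a stood at -0.34, -0.35 and -0.10 and Cox6a1 at 0.08 without a call. Cox5a, a nuclear-encoded subunit next to the catalytic core, fell by 0.44 (adjusted p = 0.0253), but was at 0.15 after quantile normalization. Cox7a2l, an assembly factor of the supercomplex of complexes III and IV rather than a subunit, fell by 0.85 (quantile -0.23).

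The heart and muscle isoforms of complex IV gave different values from one another. Cox6a2 (mm9 chr7:135349160-135349219) read 2.97 and 3.04 in vehicle, 2.18 and 2.25 under TP-16, 2.23 and 2.24 under anti-PD-1, and 1.90 and 1.95 in the combination. All 6 treated arrays lay below vehicle, with the combination lowest, and Cox6a2 fell by 1.08 (SE 0.10, adjusted p = 0.0102), by nearly as much with quantile normalization (-1.03). Cox7a1 read 2.58 and 2.76 in vehicle and 1.98 and 1.64 in the combination, and fell by 0.86 (adjusted p = 0.0329; quantile -0.82). Cox8b read -1.98 and 0.77 in vehicle, -0.07 and 0.00 under TP-16, 0.99 and -0.18 under anti-PD-1, and -0.16 and -0.18 in the combination. Its vehicle arrays lay on both sides of all combination arrays, and the value of 0.44 (SE 0.88, adjusted p = 0.724) turned to -0.94 without vehicle replicate 1.

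The summed linear level of 12 skeletal muscle markers, all above background on every array, was 27.6 and 73.8 on the vehicle arrays, 66.9 and 64.9 with TP-16, 101.7 and 43.0 with anti-PD-1, and 61.8 and 64.1 in the combination. The array lowest in these markers was lowest in Cox8b and the array highest in them was highest in Cox8b. The same 2 arrays were lowest and highest in the summed level of 6 fat markers, at 0.867 on vehicle replicate 1 and 5.14 on anti-PD-1 replicate 1, with Ucp1 above background on no array. No muscle marker was called in the combination (median 0.64). The 3 heart markers, of which 1 was above background on every array, summed to 0.245 and 0.336 in vehicle and 0.167 and 0.119 in the combination, and the 2 tested had a median of -1.06 with none called (quantile -0.49). The part of these tissues in the values of Cox6a2, Cox7a1 and Cox8b was not tested. Cox6b2, an isoform known from testis, read -1.42 and -1.22 in vehicle and -1.81 and -1.86 in the combination, and fell by 0.51 (adjusted p = 0.0306; quantile -0.44, not called). Of the testis markers, Prm1 and Ddx4 rose in the combination, and Tnp1 was at -1.42 and not called.

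**Figure D3:**
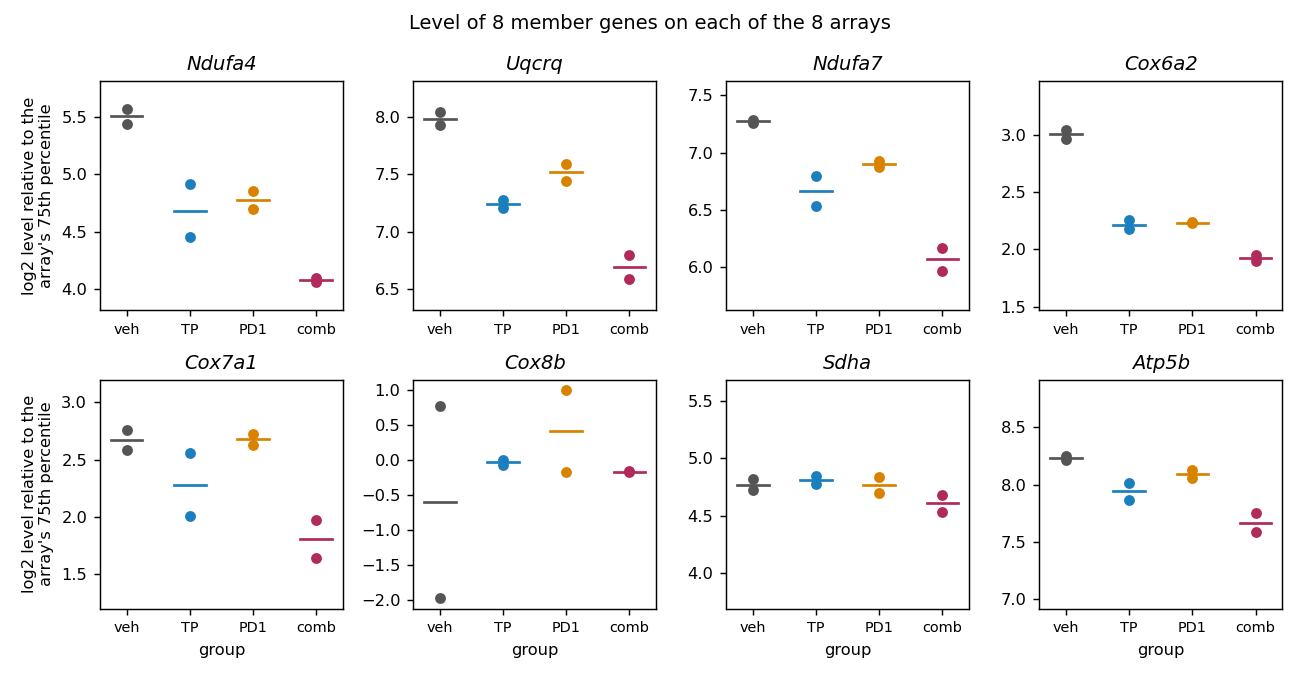
Log2 level relative to the array's 75th percentile of 8 member genes, 1 point per array, with a bar at the group mean (veh, vehicle; TP, TP-16; PD1, anti-PD-1; comb, combination; each panel has its own range). Ndufa4, Uqcrq, Ndufa7, Cox6a2 and Atp5b are lowest in the combination and highest in vehicle, while the Cox8b vehicle arrays stand at -1.98 and 0.77.

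ATP synthase had 15 of its 17 genes lower, against 26% of all genes, and a median of -0.62. After quantile normalization the median was -0.12 and 1 gene, Atp5j2, was called (-0.37), a smaller share than the 14.5% of all genes lower. The catalytic beta subunit Atp5b (mm9 chr10:127527255-127527314) read 8.22 and 8.25 in vehicle, 7.87 and 8.01 under TP-16, 8.06 and 8.13 under anti-PD-1, and 7.75 and 7.59 in the combination. The combination arrays lay below all others, and Atp5b fell by 0.57 (adjusted p = 0.0188), yet stood at 0.22 after quantile normalization. The alpha subunit Atp5a1 was at -0.38 (adjusted p = 0.0523) and at 0.23 by quantile. The gamma subunit Atp5c1 fell by 0.62 and the delta subunit Atp5d by 0.51, with quantile values of 0.01 and -0.22. Of the genes for the c ring, which turns with the proton flow, Atp5g1 fell by 0.77, Atp5g3 by 0.60 and Atp5g2 by 0.52, and the quantile values were -0.27, 0.01 and 0.30. The small subunits Atp5j2 and Atp5l, of the membrane part, and Atp5e, of the central stalk, fell by 0.95, 0.91 and 0.93 (quantile -0.37, -0.18 and -0.35). Atp5sl, which shares the name but is now listed as the complex I assembly factor Dmac2, was at 0.34 and not called. Atp5s, now Dmac2l, fell by 0.81 (quantile -0.62, not called), from readings of -2.36 and -1.90 in vehicle.

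**Figure D4:**
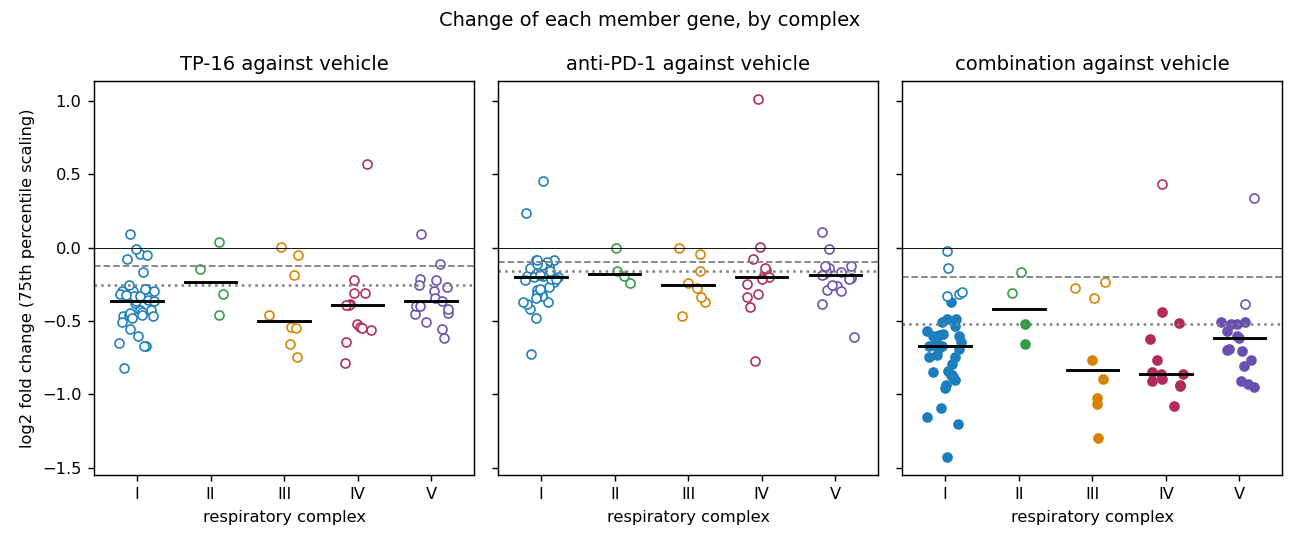
Log2 fold change of each member gene against vehicle with 75th percentile scaling, by complex. Filled points passed an adjusted p of 0.05, black bars are medians, the dashed line is the median of all tested features and the dotted line that of the brightest 10%. In the combination the medians of complexes I, III, IV and V lie below the dotted line at -0.52 and that of complex II, at -0.42, above it.

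The core and catalytic list held subunits with redox centres or catalytic sites and also some without either, such as Ndufs3, Cox5a, Uqcrc1, Uqcrc2, Atp5c1 and Atp5d. Across complexes, 10 of the 19 genes of that list fell (52.6%), Cox5a among them, against 26% of all genes, with a median of -0.44. After quantile normalization 2 were lower (10.5%), against 14.5% of all genes, with a median of -0.04. Of the other 60 genes 56 fell (93.3%), with a median of -0.76, and 20 (33.3%) after quantile normalization, with a median of -0.29. The 4 of these 60 not called with 75th percentile scaling were Ndufa10, Ndufv3, Cox8b and Atp5sl. Over the 79 members the mean signal and the change were related in opposite ways under the 2 scalings (Spearman -0.34 with 75th percentile scaling and 0.21 with quantile normalization, across genes that share arrays and are not independent). Of 27 members with over 1 tested feature, 11 had all features lower, 9 some and 7 none, and none had features called in opposite directions. In Atp5a1, Atp5b, Ndufb2 and Sdha the features lay on both sides of 0.

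**Figure D5:**
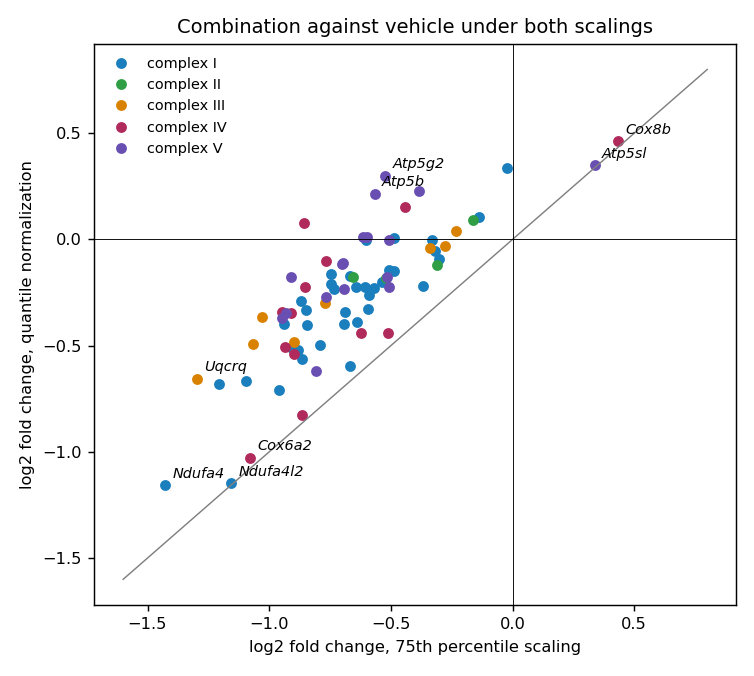
Log2 fold change of each member in the combination against vehicle with 75th percentile scaling (horizontal) and quantile normalization (vertical), coloured by complex, with the line of equal values. Ndufa4l2, Cox6a2 and Cox8b lie near the line, while Atp5b and Atp5g2 stand at -0.57 and -0.52 on the horizontal axis and at 0.22 and 0.30 on the vertical axis.

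Other genes of the pathway were read from lists chosen by function, in the combination against vehicle. Over all genes 26% were lower and 9.6% higher there, and 14.5% and 13% after quantile normalization. Of 14 further subunits and carriers, 8 fell and 1 rose (median -0.50, quantile -0.11 with 2 lower and 1 higher). Usmg5, a small ATP synthase subunit, fell by 1.27 and Atpif1, the inhibitor of its reverse reaction, by 1.06, both called with either scaling. The complex IV subunit Cox4i1 fell by 0.81, cytochrome c (Cycs) by 0.56, Cyc1 of complex III by 0.51 and Ndufab1 of complex I by 0.50, with quantile values of -0.15, 0.03, -0.13 and -0.11 and none called. The gene that rose was Ucp2, an inner membrane carrier abundant in immune cells, by 1.68 (quantile 1.71).

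Of 11 features of the mitochondrial genome, 4 fell: ND6 by 1.20, ND3 by 1.03, COX2 by 0.85 and CYTB by 0.63. After quantile normalization ND6 and ND3 remained lower and COX1 was higher by 1.18, and the median turned from -0.33 to 0.16. Of 47 assembly factors 19 fell and none rose (median -0.38), and 14 fell after quantile normalization (median -0.30). Pet100 and Cox16, of complex IV assembly, and Uqcc2, of complex III assembly, fell by 1.19, 1.00 and 1.05 (quantile -1.02, -0.76 and -0.60, all called). Of 77 genes of the mitochondrial ribosome, which translates the mitochondrial genome, 60 fell and none rose (median -0.58, quantile -0.38 with 34 lower). A list of 82 cytosolic ribosomal protein genes, chosen after its values were seen, had 79 lower with a median of -0.97, and -0.07 after quantile normalization with 7 lower.

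The citric acid cycle and pyruvate dehydrogenase stood near the background of 26% of all genes lower. Of 17 genes, 5 fell (29.4%) and none rose (median -0.17). Those were Mdh2, Pdhb, Fh1, Idh3g and Dlst, from -0.60 to -0.42, and none of them was called after quantile normalization, where the median was 0.10 and Ogdh was higher by 0.54. Of 16 regulators of mitochondrial biogenesis, Ppargc1b, a coactivator, rose by 0.94 (quantile 0.96), while Tfb2m, a mitochondrial transcription factor, fell by 0.80 and Ssbp1, the mitochondrial single-strand DNA binding protein, by 0.70, with both scalings. Ppargc1a, Nrf1, Gabpa, Tfam, Esrra and Yy1 were at -0.10, -0.25, -0.14, -0.30, -0.20 and -0.18, and none passed the threshold. After quantile normalization Hcfc1, a transcriptional coregulator, was also called, higher by 0.48 (0.38 and not called with 75th percentile scaling), and Ppargc1a stood at 0.61 without a call.

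Markers of several other cell types also differed in the combination, not all of a list in the same way. The summed linear level of 5 T cell markers was 2.93 and 8.18 in vehicle, 11.2 to 14.7 under each agent alone, and 17.6 and 30.7 in the combination (3 of 5 called higher). That of 4 macrophage markers was 76.7 and 89.1 in vehicle and 134 and 198 in the combination (3 of 4 called higher), and that of 4 neutrophil markers 37.8 and 60.3 in vehicle and 22.9 and 19.9 in the combination (2 of 4 called lower, and Ly6g at 1.09 not called, but called higher after quantile normalization at 1.93). That of 4 fibroblast markers was 239 and 209 in vehicle and 379 and 391 in the combination (2 of 4 called higher). Of 5 pericyte markers 1 was called higher and 1 lower, and of 3 endothelial markers none was called. After quantile normalization 2 T cell, 3 macrophage, 3 fibroblast and 2 pericyte markers were called higher, and the calls of lower markers were as many. The 7 markers of colon carcinoma and epithelium summed to 13.5 and 9.46 in vehicle and 5.21 and 3.48 in the combination, with 2 of 5 tested called lower and Cdh1 at 0.82 not called. Of these 7, 3 were above background on all 8 arrays, Krt8 and Krt18 among them. Krt19 was above background on 5 arrays, Cdx2 on 4 and Vil1 on none, so that the labelled tissue showed only part of an epithelial profile. The part of these cell types in the result was not tested. Of 9 hypoxia-induced genes, 1 (Ldha) fell by 0.76 and none rose with 75th percentile scaling (median 0.17), while after quantile normalization Ldha was at 0.02 and Ndrg1 alone was called, higher by 0.83 (median 0.47). Their sum with 75th percentile scaling was at 633 and 592 in vehicle and 576 and 456 in the combination. Of 4 genes of cell division, Ccnb1 fell by 0.55 with 75th percentile scaling and no other was called, while after quantile normalization Mki67 and Top2a were called, higher by 0.58 and 0.61, and Ccnb1 was not (-0.38).

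These calls depended on which arrays were in the fit. Without combination replicate 1, 47 of the 79 members were called, against 16.3% of all genes lower, and without vehicle replicate 2 there were 41, against 15.2%. Without combination replicate 2 no member and none of all 21497 genes was called (limma, smallest adjusted p of a member = 0.0650), and at an unadjusted p of 0.05 63 members were lower, against 23.6% of all genes. With the combination and vehicle arrays alone in the fit no gene was called either (smallest adjusted p of a member = 0.0635), and 64 members were lower at the unadjusted threshold, against 29.4% of all genes.

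TP-16 alone gave values below vehicle in 74 of the 79 members (93.7%), against 65.2% of all genes, with no call. After quantile normalization 58 were below vehicle (73.4%), against 50.1%. Its median difference from vehicle was -0.37, against -0.12 over all tested features and -0.26 over the brightest 10%, and after quantile normalization it was -0.13. No member passed an adjusted p of 0.05 (limma, smallest 0.0590), where 0.0512% of all genes were lower. With normexp correction 23 did, where 17.2% of all genes were lower, and with trended and robust moderation 21, where 3.85% were. At an unadjusted p of 0.05, 51 members were lower and none higher, against 21.8% of all genes lower. The largest differences were -0.82 for Ndufa4 (adjusted p = 0.0933), -0.79 for Cox6a2 (adjusted p = 0.0590) and -0.75 for Uqcrq (adjusted p = 0.0792). After quantile normalization 1 member, Cox6a2, was called (-0.76, adjusted p = 0.0465), where 0.209% of all genes were lower. Medians by complex ran from -0.23 in complex II to -0.50 in complex III.

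Anti-PD-1 alone also gave values below vehicle in 74 of the 79 members, against 64.0% of all genes (61 after quantile normalization, against 52.7%), with a median of -0.20, against -0.10 over all tested features and -0.16 over the brightest 10%, and -0.08 after quantile normalization. No member passed an adjusted p of 0.05 (limma, smallest 0.158), where 0.0465% of all genes were lower, and 20 were lower at the unadjusted threshold, against 10% of all genes. Cox6a2 was at -0.77, Ndufa4 at -0.73 and Atp5s at -0.61, with adjusted p of 0.158, 0.247 and 0.279. Ndufa4l2, at 0.45 (SE 0.34), and Cox8b, at 1.01, stood above vehicle without passing either threshold.

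Set against each agent alone, the combination had a median of -0.31 against TP-16 and of -0.48 against anti-PD-1 (quantile -0.11 and -0.15). No member was called in either by limma's adjusted p (smallest 0.127 and 0.0722). Against anti-PD-1 this count rested on the settings, with 41 called after normexp correction, where 20.2% of all genes were lower, and 46 with trended and robust moderation, where 8.83% were. At the unadjusted threshold 38 members were lower than under TP-16, against 14.4% of all genes, and 60 lower than under anti-PD-1, against 21.1% (adjusted 0.014%). The lowest single value was Ndufa4l2 against anti-PD-1, at -1.61 (SE 0.34, adjusted p = 0.0748). These comparisons share the combination arrays.

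The departure from additivity, which is the combination minus both single differences on the log2 scale, had a median of -0.09 over the members (quantile -0.01). None was called (limma, smallest adjusted p = 0.567), and 1 passed the unadjusted threshold, Cox6a2, at 0.48 (SE 0.14), where 4.81% of all genes were higher and 2.20% lower at that threshold. For it TP-16 gave -0.79, anti-PD-1 -0.77 and the combination -1.08.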

How the data were processed

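RNA of whole CT26 tumors was hybridised to Agilent SurePrint G3 Mouse arrays (1 colour, Cy3), and per the file headers the scans were read with Agilent Feature Extraction 10.7.1.1, with features placed on mm9. The extraction kit differs between the sample records and the methods. The authors deposited 2 kinds of values. The authors deposited scanner files with the intensity of each spot, already corrected for background by Feature Extraction per the file headers. The deposited log2 table was normalised by the authors in GeneSpring by a method not given in the sources used here, and its sorted columns differ by at most 0.00115, as after quantile normalization.

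Spots marked as outliers were left out (38 features lost), spots of a feature were averaged, and log2 intensity minus each array's 75th percentile was fitted with limma 3.58.1 (R 4.3.3) over all 8 arrays with 1 mean per group and 4 residual degrees of freedom. P-values were adjusted by Benjamini-Hochberg over 31912 features that both arrays of some group showed well above background, and each gene was read from its brightest tested feature. Precision is set by the small number of arrays. Between 51.4% and 59.7% of features per array were well above background. The 101 member features with an accession in the RefSeq table were named through it, and the others keep the file's name. The script was tested on simulated data. Genes named were the core and catalytic subunits, the tissue isoforms with their common partners, the 3 largest differences each way per comparison with vehicle, and called genes and regulators of the other lists. Further genes were named for their role. The members and lists were chosen with earlier results of these data known. Alternatives were quantile normalization, another percentile, normexp correction, other filters and moderations, the authors' log2 values, the methods' t-test, a replicate block, all features and each array left out. The centring on the brightest 10% was chosen after seeing the data.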

Additional observations from a re-analysis of the deposited data

How the results depend on the processing

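Directions of the members' medians held under each alternative run, apart from 1 sign named below, and sizes and counts did not. The authors' log2 columns come from the same scans and share 1 distribution, as after quantile normalization. Their closeness to that setting is therefore no separate support. With quantile normalization and with the authors' log2 values, 22 members were called in the combination under either, 1 and 1 under TP-16, and the median differences were -0.23 and -0.22 in the combination, -0.13 and -0.13 under TP-16, -0.078 and -0.076 under anti-PD-1, -0.11 and -0.11 for the combination against TP-16, -0.15 and -0.15 against anti-PD-1, and -0.0086 and -0.0095 for the departure from additivity. Among the 12 members below 0 that quantile normalization turned upward in the combination were 8 named by the rule, which both settings turned, to 0.11 and 0.11 for Ndufs1, 0.091 and 0.092 for Sdha, 0.041 and 0.041 for Uqcrfs1, 0.15 and 0.15 for Cox5a, 0.23 and 0.23 for Atp5a1, 0.22 and 0.22 for Atp5b, 0.014 and 0.015 for Atp5c1, and 0.079 and 0.077 for Cox6a1. Normexp correction gave 23 calls under TP-16 (median -0.29; 17.2% of all genes lower) and 41 for the combination against anti-PD-1 (median -0.38; 20.2%), with a median of -0.58 in the combination. Trended and robust moderation gave 21 (3.85%), 46 (8.83%) and, against TP-16, 1 (0.698%). Features above background on all arrays gave 1 under TP-16 (0.666%) and 21 against anti-PD-1 (5.99%). Without the filter on dim features 37 members were called in the combination (12.2%). The fit of the 2 compared groups and the methods' t-test after adjustment gave 0 there and over all genes, with 64 and 65 members at the unadjusted threshold (29.4% and 22% of all genes lower). Minus the median of the brightest 10%, an alternative added after seeing the data, the medians were -0.17 in the combination, -0.12 under TP-16, -0.041 under anti-PD-1, -0.045 and -0.10 for the combination against TP-16 and anti-PD-1, and 0.044 for the departure.

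Leaving out 1 array at a time gave 0 to 63 calls in the combination (median -0.76 to -0.62), with 0 only without combination replicate 2. The shares of all genes lower in the same fits were 0% to 22%. It gave 0 to 1 under TP-16 (median -0.46 to -0.30), and 0 under anti-PD-1 (-0.27 to -0.17), against TP-16 (-0.40 to -0.22), against anti-PD-1 (-0.52 to -0.41) and for the departure (-0.17 to -0.0097). Cox8b turned to -0.94 without vehicle replicate 1 and was 1.81 without vehicle replicate 2. The cause of these shifts was not tested. Deviations of same-numbered arrays correlated from 0.15 to 0.29 in 4 of the 6 pairs of groups and at -0.11 and -0.19 in the others, those of anti-PD-1 with vehicle and with the combination, so the numbers were not taken to pair the samples. With the replicate block 61 members (22.7% of all genes lower) were called in the combination and 0 in each other comparison. Every tested member feature in place of 1 per gene gave 83 calls among 116 features, where 22.9% of all tested features were lower. Signal over background limited 2 of the 81 genes.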
